A study of Mus musculus with 2 samples.

Results

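The activin, inhibin and follistatin genes were followed in uteri at gestation day 2.5, before implantation. They were taken from the deposited table by gene symbol: Inhba, Inhbb and Inha for the subunits, Fst, Fstl1 and Fstl3 for the follistatins, and Acvr1, Acvr1b, Acvr2a and Acvr2b for the receptors. Of these 10 genes, 8 had a row among the 14678 genes of the table. Inhba and Acvr2b had no row, so their copy numbers were not analysed here, and only their promoter sequences are described. All mice were double transgenic (VEGFtetO/tetO/beta-AKtg/wt) females of 9 to 10 weeks, in which a tetR-Krab fusion protein can silence VEGF. The fusion protein is driven by the beta-actin promoter and so is not limited to a cell type of the uterus. In the Dox+ group doxycycline chow kept the repressor off VEGF, and in the Dox- group, on regular chow, VEGF was repressed. The groups therefore differed both in the drug and in VEGF, and effects of these cannot be told apart. Doxycycline was withdrawn from the Dox- mice weeks before the uteri were taken. The paper also reports lower ovulation in Dox- mice, and its part in the differences given here was not tested. Each group was 1 digital gene expression (DGE) library of RNA pooled from 3 uteri, so that no difference has a replicate check in these data. The genes that the paper names as measured by qPCR include VEGF and Ihh but none of the members. In a DGE library short sequence tags are counted, and the copy number of a gene is its number of tags. The clean tags were 5985924 in Dox+ and 5844314 in Dox-, and levels are given as tags per 1000000 clean tags (TPM), without a length correction. Vegfa, the repressed gene, had 247 copies in Dox+ and 125 in Dox-.

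Activins and inhibins are dimeric growth factors of the TGFβ superfamily, first known for their opposite actions on the secretion of follicle stimulating hormone by the pituitary. Activins are dimers of beta subunits, of which Inhba and Inhbb encode the A and B forms, and an inhibin joins a beta subunit to the alpha subunit encoded by Inha. An activin binds a type II receptor, which recruits a type I receptor that phosphorylates SMAD2 and SMAD3, while follistatin binds the activin outside the cell and blocks it. In the pregnant uterus these factors are known for their part in decidualization.

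The activin beta B subunit was the member gene with the largest difference. Inhbb (gene 16324, NCBIM37 chromosome 1, 121312042 to 121318825, minus strand) was counted with 63 copies in Dox+ and 3394 in Dox-, or 10.5 and 580.7 TPM. It was thus 55.2-fold higher in Dox- (95% interval 43.0 to 72.0). The interval is the exact Clopper-Pearson interval of the split of the tags between the libraries, and, like every interval here, it covers counting error only. Among the 6547 genes that reached 200 copies over both libraries, Inhbb had place 2 from the top when ranked by the log2 ratio of Dox- over Dox+, which was 5.79.

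The alpha subunit, which turns a beta subunit into an inhibin, was near the limit of detection in both libraries. Inha (gene 16322, chromosome 1, 75503652 to 75506941, plus strand) had 0 copies in Dox+, where 3 copies would equal 0.501 TPM, and 2 copies in Dox-. No fold change was taken for Inha, since both values lie under the floor of 3 copies. In Dox-, 3394 tags of the beta B subunit thus stood beside 2 tags of the alpha subunit.

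The promoter windows listed for 3 members with unlike tag counts are shown, from RefSeq on GRCm38.p6. Each runs from 250 bases before to 50 after the listed start. They are that of Inhbb, the subunit gene that was higher in Dox-, that of Inha, the subunit gene nearly without tags, and that of Fstl1, which had the most copies of the members in Dox+. The letters listed for Inha begin as coding sequence of the gene. That window therefore lies inside the gene and does not show its promoter. The capitals mark the GC box, GGGCGG or CCGCCC on the other strand, a motif bound by SP1-type factors. Each sequence is printed 5′ to 3′ on the strand of its gene.
Inhbb, chr1:119422199-119422498, minus strand: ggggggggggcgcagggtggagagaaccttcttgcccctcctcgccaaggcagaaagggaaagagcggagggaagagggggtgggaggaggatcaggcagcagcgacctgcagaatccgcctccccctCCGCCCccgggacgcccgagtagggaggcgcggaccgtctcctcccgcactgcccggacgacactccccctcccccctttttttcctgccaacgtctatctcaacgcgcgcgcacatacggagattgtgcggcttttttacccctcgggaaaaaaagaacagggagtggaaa
Inha, chr1:75507359-75507658, plus strand: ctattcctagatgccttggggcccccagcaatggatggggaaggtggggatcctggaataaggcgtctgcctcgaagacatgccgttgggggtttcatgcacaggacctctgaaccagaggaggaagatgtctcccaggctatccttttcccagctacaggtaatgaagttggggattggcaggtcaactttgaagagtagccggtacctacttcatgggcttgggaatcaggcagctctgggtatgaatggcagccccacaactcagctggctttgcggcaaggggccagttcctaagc
Fstl1, chr16:37776805-37777104, plus strand: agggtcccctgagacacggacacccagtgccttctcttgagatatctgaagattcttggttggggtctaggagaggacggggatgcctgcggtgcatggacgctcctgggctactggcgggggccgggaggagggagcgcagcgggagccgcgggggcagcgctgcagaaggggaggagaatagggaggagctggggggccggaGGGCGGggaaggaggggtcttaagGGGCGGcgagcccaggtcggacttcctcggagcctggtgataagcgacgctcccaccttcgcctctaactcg

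The Inhbb window held 1 GC box, at base 129 of the window, the Fstl1 window held 2 and the Inha window none. Of 32544 promoter windows of the same length, 35.9% held at least 1. The windows of Acvr1, Acvr1b, Acvr2a, Acvr2b and Fstl3 held 6, 4, 3, 3 and 4 GC boxes. The 4 receptor windows had a GC content of 73.3% to 83.7%, against 64.3% for Inhbb, 55.3% for Inha, 47.7% for Inhba and a median of 53% over all windows. The TATA box TATAAA, searched on both strands, was found once each in Inhba and Fstl3 among the 9 members with a window, and in 13.6% of all windows. The short SMAD element GTCT (AGAC on the other strand) occurred 2 times in Inhbb and 3 times in Inha, but 88% of all windows hold it. Its palindrome GTCTAGAC, which contains the short element, was in none of the 9 windows and in 0.215% of all windows. The cAMP response element TGACGTCA was in none of the 9 and in 1.8% of all windows, and the shorter TGACG, which it contains, was in none of the 9 and in 20.9%. The short estrogen receptor element GGTCA was in Inhba, Inha and Fstl3, and in 40.5% of all windows. These matches describe the letters of the windows only. For Inha, whose window lies inside the gene, the matches and the GC content are not promoter results. Fst had no entry in the promoter table.

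The follistatin gene went the other way. Fst (gene 14313, chromosome 13, 115242470 to 115249159, minus strand), which encodes the secreted protein that binds and blocks activins, had 725 copies in Dox+ and 44 in Dox-, or 121 and 7.53 TPM. It was 16.1-fold lower in Dox- (11.9 to 22.3), a log2 ratio of -4.01, and had place 12 from the bottom among the 6547 genes. Fstl3 (gene 83554, chromosome 10, 79240017 to 79245375, plus strand), a related secreted antagonist of activins, had 38 copies in Dox+ and 31 in Dox-. Its log2 ratio of -0.26 had an interval from -0.99 to 0.46, so that no difference was detectable at this depth. Fstl1 (gene 14314, chromosome 16, 37776959 to 37836600, plus strand), a secreted glycoprotein with a follistatin-like domain, had 4617 copies in Dox+ and 3212 in Dox-, or 771 and 549.6 TPM. It was 1.40-fold lower in Dox- (1.34 to 1.47), more than counting error but less than the fold change of 1.5 asked of a called gene. The interval of the ratio of Fst thus lay apart from those of Fstl1 and Fstl3.

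A gene was called where its combined copy number was at least 200, its fold change at least 1.5 and the false discovery rate (FDR) of the Audic-Claverie test, adjusted over all genes of the table, below 0.05. With 1 library per condition this test compares the libraries, not the conditions. Inhbb was the 1 member called higher, against 15.2% of all tested genes, and Fst the 1 member called lower, against 14.7%. Fstl1 and Acvr1 were tested and not called, and the other 4 members with a row had fewer than 200 combined copies. Inhbb reached 200 copies through the Dox- library alone and Fst through the Dox+ library alone, so their number among the tested members says nothing about the family.

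**Figure D1:**
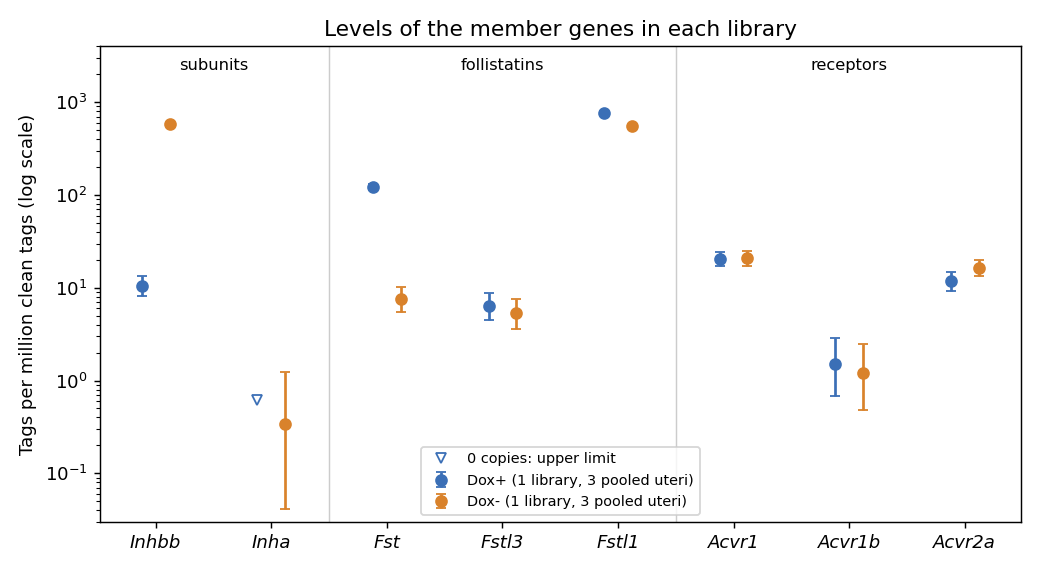
Level of each of the 8 member genes with a row, in TPM on a log scale, in the Dox+ library (blue) and the Dox- library (orange). Bars are exact Poisson 95% intervals of the copy number and cover counting error only, and the open triangle is the upper limit for Inha, with 0 copies in Dox+. The intervals of the libraries lie apart for Inhbb, Fst and Fstl1 and overlap for the other members.

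**Figure D2:**
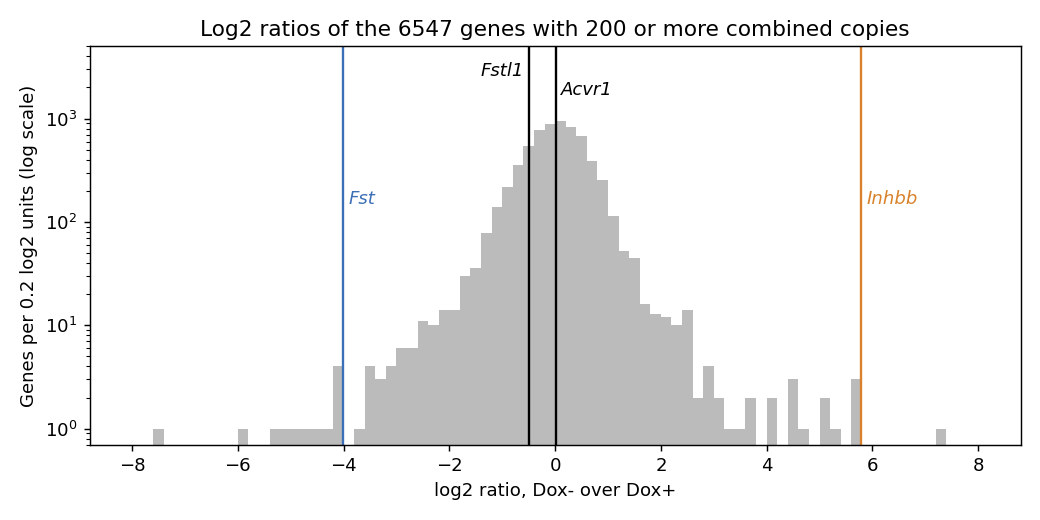
Number of genes (log scale) by log2 ratio of Dox- over Dox+, for the 6547 genes that reached 200 copies over both libraries, with counts of 3 or fewer set to 3. Inhbb at 5.79 and Fst at -4.01 stand in opposite tails, while Fstl1 at -0.49 and Acvr1 at 0.01 stand in the body of the distribution.

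Since Inhbb and its antagonist Fst went opposite ways, their tags were also compared within each library. In Dox+ there were 11.5 tags of Fst for each tag of Inhbb. In Dox- there were 77.1 tags of Inhbb for each tag of Fst. The conditional maximum likelihood estimate of the odds ratio, which differs slightly from the plain quotient of the ratios, was 879.8 for Inhbb against Fst in Dox- over Dox+ (exact conditional 95% interval 589 to 1343), and differences in transcript length cancel in it. With the tags of Fstl3 added to those of Fst, there were 12.1 antagonist tags for each Inhbb tag in Dox+ and 45.3 Inhbb tags for each antagonist tag in Dox-. The conditional odds ratio for these was 544 (383 to 785). Between the antagonists, 19.1 tags of Fst were counted for each tag of Fstl3 in Dox+ and 1.42 in Dox-.

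The receptor genes with a row differed far less between the libraries than Inhbb and Fst. Acvr1 (gene 11477, chromosome 2, 58241055 to 58419568, minus strand), a type I receptor used mostly by bone morphogenetic proteins, had 123 copies in Dox+ and 121 in Dox-. Its fold change of 1.01 had an interval from 0.777 to 1.31, which does not reach 1.5-fold in either direction. Acvr2a (gene 11480, chromosome 2, 48669629 to 48758789, plus strand), a type II receptor for activins, had 71 copies in Dox+ and 96 in Dox-, a fold change of 1.38 (1.01 to 1.91). Its FDR was not below 0.05, and with 167 combined copies Acvr2a was under the filter. Acvr1b (gene 11479, chromosome 15, 101004556 to 101043032, plus strand), a type I receptor of activins, had 9 and 7 copies. Its interval, from 0.252 to 2.40, was too wide to show a difference of 2-fold at this depth. The tags of Acvr2a per tag of Acvr1 were 0.577 in Dox+ and 0.793 in Dox-, and the conditional odds ratio, 1.37, had an interval from 0.907 to 2.08. Set against Acvr2a alone, since the type II receptor gene Acvr2b had no row, Inhbb had 0.887 tags per tag of Acvr2a in Dox+ and 35.4 in Dox-.

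Between genes, levels were compared as TPM per kilobase of the longest annotated transcript. In Dox+ the order was Fstl1 with 204, Fst with 51.8, Acvr1 with 6.24, Fstl3 with 3.25, Inhbb with 2.47, Acvr2a with 2.09, Acvr1b with 0.459 and Inha with 0 TPM per kilobase. The intervals of Fstl3 and Inhbb, of Inhbb and Acvr2a, and of Acvr1b and Inha overlapped. In Dox- Fstl1 with 145 and Inhbb with 136 TPM per kilobase led and had overlapping intervals, and Acvr1 followed with 6.29. Fst with 3.22, Acvr2a with 2.89 and Fstl3 with 2.71 TPM per kilobase came next, with overlapping intervals, and Acvr1b with 0.366 and Inha with 0.232 were last. On this scale Inhbb thus went from place 5 to place 2 and Fst from place 2 to place 4. Without the division by length, Inhbb with 580.7 TPM stood above Fstl1 with 549.6 in Dox-, again with overlapping intervals. Neither scale therefore settles the order of Inhbb and Fstl1 in Dox-. Without the division, Inhbb went from place 5 to place 1 and Fst from place 2 to place 5. A DGE tag marks a transcript whatever its length, while the sample descriptions mention fragmentation of the mRNA, and which scale is the right one was not resolved.

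Of all tags of the 8 members, 5646 in Dox+ and 6907 in Dox-, Inhbb held 1.12% in Dox+ (exact 95% interval 0.858 to 1.43) and 49.1% in Dox- (48.0 to 50.3). Fst held 12.8% in Dox+ (11.98 to 13.7) and 0.637% in Dox- (0.463 to 0.854). Fstl1 held 81.8% in Dox+ (80.7 to 82.8) and 46.5% in Dox- (45.3 to 47.7). The tags of the family were therefore mostly those of Fstl1 and Fst in Dox+, and mostly those of Inhbb and Fstl1 in Dox-. The shares of a library sum to the whole, so a larger share of 1 gene lowers those of the others.

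**Figure D3:**
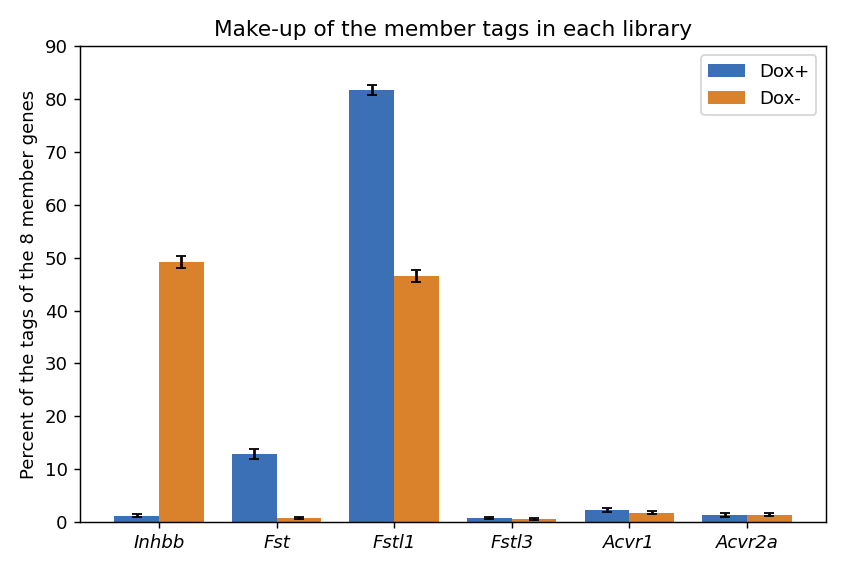
Share of the tags of the 8 member genes, in percent, held by each of the 6 members shown in the Dox+ library (blue) and the Dox- library (orange). Bars start at 0, and error bars are exact 95% binomial intervals that cover counting error only. Inhbb held 1.12% of the member tags in Dox+ and 49.1% in Dox-, and Fst 12.8% and 0.637%.

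Genes around the activin pathway were taken from 7 lists, which hold 70 genes other than the members, 54 of them with a row and 23 of those with at least 200 combined copies. Of these 23 genes, 7 were called higher and 5 lower, or 30.4% and 21.7%, against 15.2% and 14.7% of all tested genes. Their median log2 ratio was 0.14, against 0.03 over all tested genes. Under the exact test of edgeR with an assumed biological coefficient of variation of 0.2, Pmepa1 and Bhlhe40 were still called higher and Pcsk5 lower. With 0.4 assumed, 0 of these genes were called in either direction, while Inhbb and Fst were.

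Among the 18 genes of extracellular antagonists and co-receptors, 15 had a row, and the 3 tested were Fst, Fstl1 and Tgfbr3. Tgfbr3 encodes betaglycan, a co-receptor through which inhibin competes with activin for type II receptors. It had 720 copies in Dox+ and 397 in Dox-, was 1.77-fold lower in Dox-, and was called lower. With the filter at 100 combined copies, 4 of 6 tested genes of the list were called lower and 0 higher. The share of all genes called at that filter was not computed. The added calls were Bambi, a pseudoreceptor that dampens signaling, with 136 and 45 copies, and Chrd, an antagonist of bone morphogenetic proteins, with 100 and 62.

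Of the 12 type I and type II receptors of the superfamily, 10 had a row, 4 were tested and 0 were called. With 15.2% of all tested genes called higher and 14.7% lower, 0 of 4 does not set the receptors apart. Without a filter on copies 1 of the 10 was called lower, Amhr2, the type II receptor of anti-Müllerian hormone, with 65 and 12 copies. In that setting 2077 of the 14678 genes of the table were called lower. Tgfbr2, the type II receptor of TGFβ, had 884 and 841 copies in Dox+ and Dox-, and Bmpr1a, a type I receptor of bone morphogenetic proteins, had 344 and 361. The log2 ratios of the 4 tested receptors ran from -0.04 to 0.26. Among 14 other ligands that can use activin receptors, 7 had a row, and Bmp7, the 1 gene tested, had 296 and 363 copies and was not called. Bmp4, next in copies, had 64 and 56.

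The intracellular SMAD2/3 branch had 16 of 17 genes with a row and 12 tested. Of the 12, 5 were called higher and 2 lower, against 15.2% and 14.7% of all tested genes. The 2 of 12 called lower were near the share over all tested genes. The median log2 ratio of the 12 was 0.25, against 0.03 over all tested genes. The called genes are known as brakes of the pathway. Pmepa1, which sequesters SMAD2 and SMAD3, rose from 162 to 744 copies, 4.70-fold. Skil, the corepressor SnoN, rose from 105 to 243 copies, and Smad7, the inhibitory SMAD, from 150 to 275. Tgif1, a corepressor, rose from 274 to 558 copies, and Ppm1a, a phosphatase of SMAD2 and SMAD3, from 86 to 155. In the opposite direction, Tgif2, the relative of Tgif1, fell from 274 to 125 copies, and Nedd4l, a ubiquitin ligase for activated SMAD2 and SMAD3, from 221 to 140. The SMADs that carry the signal were not called. Smad3 had 139 and 161 copies and Smad4 168 and 195, while Smad2 with 101 and 66 was under the filter. Ski, the gene of this list with the most copies, had 1060 and 692, a log2 ratio of -0.58, just short of the fold change of 1.5, and it was called lower with TMM or median-ratio scaling.

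A list of 10 genes known to respond to activin or TGFβ had 5 tested genes. All 5 were called higher, against 15.2% of all tested genes. The median log2 ratio of these 5 genes was 1.25, against 0.03 over all tested genes. They were Pmepa1, Skil and Smad7, which are also in the SMAD2/3 list, Bhlhe40, a transcription factor of the circadian clock, which rose from 190 to 458 copies, and Junb, a subunit of AP-1, which rose from 121 to 224. With the filter at 100 combined copies 8 of 8 were called higher, and the share of all genes called there was not computed. This list, like the others, was chosen with earlier results of these data known, so its counts are a description only. Many other signals are known to act on these genes as well.

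Activin precursors are cut by proprotein convertases before they are active. Of 7 listed convertases and processing proteases, 5 had a row and 4 were tested, with 0 called higher and 2 lower. The shares of all tested genes were 15.2% higher and 14.7% lower. Pcsk5, a convertase, fell from 450 to 108 copies, and was 4.07-fold lower in Dox-. Bmp1, the procollagen C-proteinase, fell from 606 to 363 copies. Furin, the general convertase, had 246 and 242 copies, a fold change of 1.01, and was not called. Pcsk6, a convertase with too few copies to be tested, had 25 in Dox+ and 46 in Dox-. It was called higher without a filter on copies.

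**Figure D4:**
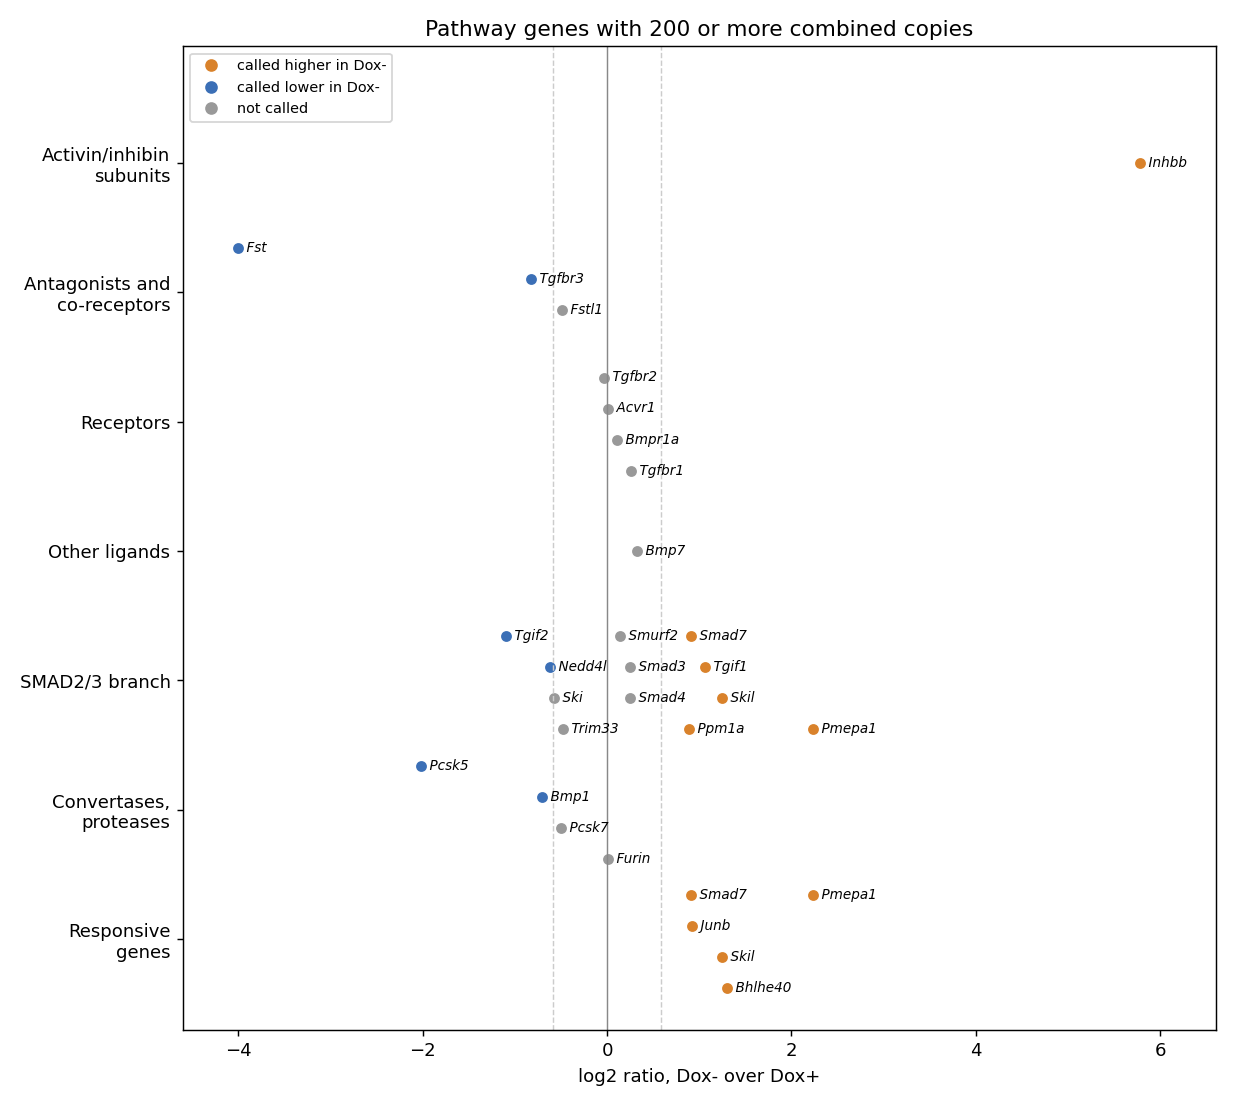
Log2 ratio of Dox- over Dox+ of the genes of the 7 pathway lists with at least 200 combined copies, 1 point per gene, coloured by call. Dashed lines mark a fold change of 1.5, the vertical position within a list has no meaning, and Pmepa1, Skil and Smad7 appear in 2 lists. The 5 responsive genes lie to the right, the 4 receptors lie between the dashed lines, and Inhbb and Fst lie farthest out.

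With 2 libraries, likeness of pattern is only likeness of the log2 ratio. The 3 genes nearest to Inhbb were Crtac1 with 4 and 205 copies, Spink12 with 14 and 693, and Ptpn5 with 14 and 569. Those nearest to Fst were Fxyd4, a regulator of the sodium pump, with 1501 and 87 copies, Ihh, the hedgehog ligand of the uterine epithelium, with 646 and 37, and Maob, a monoamine oxidase, with 888 and 49. Their log2 ratios differed from that of Inhbb by 0.07 to 0.41 and from that of Fst by 0.07 to 0.14.

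Marker genes were read beside these results, since in bulk tissue fewer cells of a type and less RNA per cell cannot be told apart. Over all tested genes, 15.2% were called higher and 14.7% lower. From 100 combined copies, 1444 genes were called higher and 1366 lower, and their share of the genes tested there was not computed. The epithelial, stromal and myometrial markers of the uterus all had tags in both libraries. The summed level of 10 epithelial markers was 1264 TPM in Dox+ and 1820.1 in Dox-, with 4 of 9 tested called higher and 1 lower. The median log2 ratio of the 9 was 0.43. The 10 stromal markers summed to 9717 and 11369 TPM, with 1 of 10 tested called higher and 4 lower. Their median log2 ratio was -0.50, with a range from -2.75 to 1.04, so the larger sum in Dox- does not describe most of them. The 8 myometrial markers summed to 6506 and 4489 TPM, with 3 of 7 tested called lower and a median log2 ratio of -0.57. The 8 endothelial markers summed to 226 and 152 TPM, with 2 of 4 tested called lower, and 5 of 7 when tested from 100 combined copies. The 7 leukocyte markers summed to 81.9 and 121 TPM, with 0 of 2 tested called, and 2 of 5 called higher from 100 combined copies. The 4 adipocyte markers summed to 82.7 and 55.3 TPM with 1 of 2 tested called lower, and 4 of 6 striated muscle markers, those with a row, to 580.2 and 217 TPM with the 1 tested called lower. Ovarian tissue is rich in inhibin and follistatin transcripts, and of 12 ovarian markers 3 had a row, with 20.9 and 36.8 TPM in sum. They were Foxl2, which was called higher, with 104 and 198 copies, Star with 12 and 13, and Gdf9 with 9 and 4. Of the 3 oviduct markers, with 14.9 and 18.0 TPM in sum, Pax2 had 61 and 78 copies, Foxj1 3 and 25, and Ovgp1 25 and 2, and 0 of 4 markers of the embryo had a row. The part of cell composition in the differences of Inhbb and Fst was not tested.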

How the data were processed

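Each condition was 1 library made from 6 µg of RNA pooled from 3 uteri. The authors removed adaptor-only, low quality and single-copy tags, aligned the rest to mouse mRNA sequences of mm9, and deposited the count of tags per gene, without normalization. The deposited TPM were computed by the authors as copies per 1000000 clean tags, with 0.01 written for a count of 0. CASAVA is named in the submitters' processing notes, and the aligner is not given in the sources used here. The deposited ratios, p-values and FDR of the authors were not used.

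The clean tags of each library were derived from counts and TPM of genes with at least 10000 copies. The counts were compared by a two-sided Audic-Claverie test across all genes, with Benjamini-Hochberg adjustment. Counts of 3 or fewer were set to 3 for fold changes. Lists with fewer than 5 tested genes were given no median. The rule for named genes took all members, every called gene and the 2 genes with the most copies of each pathway list, and the 3 genes nearest in ratio to Inhbb and Fst. Other listed genes were named after their values were seen. Some listed genes are not reported by name here. Members and lists were chosen with earlier results of these data known. Gene positions and lengths are from the GENCODE annotation of NCBIM37, the assembly also called mm9. The calls and intervals were tested on simulated libraries with counting error only, so variation between pools was not covered. Python 3.11.15, scipy 1.17.1, R 4.3.3 and edgeR 4.0.16 were used. Protein sequences were not used here.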

Additional observations from a re-analysis of the deposited data

How the results depend on the processing

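Inhbb was the member called higher and Fst the member called lower under each of the 9 alternatives: other copy number filters (100 or none), TMM, median-ratio or counted-tag scaling, Fisher's exact test, the edgeR exact test with an assumed coefficient of variation of 0.2 or 0.4, and a fold change of at least 2. Scaling and a pseudocount of 1 moved the log2 ratio of Inhbb between 5.75 and 5.82, that of Fst between -4.04 and -3.97, and that of Acvr1 between -0.02 and 0.05. Over all genes, without a filter 2044 were called higher and 2077 lower, at 2-fold 302 and 368, with a coefficient of variation of 0.2 147 and 174, and with 0.4 16 and 17, against 994 and 961. Of the listed pathway genes other than the members, 7 were called higher and 5 lower. The same alternatives, chosen for them after seeing the data, gave 14 and 11 without a filter, 4 and 2 at 2-fold, 2 and 1 with 0.2, and 0 and 0 with 0.4, and 11 were called higher from 100 combined copies. The true variation between pools is unknown with 1 library per condition. Depth limits Inha, Acvr1b and Fstl3, whose intervals are wide. No paired analysis was possible because each condition has 1 library, and for the same reason no library could be left out.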

Other observations

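Several genes of the list of follistatin-like genes and antagonists had too few copies to be tested, and they are given as values, chosen after the values were seen. Nog, which encodes noggin, an antagonist of bone morphogenetic proteins, had 65 copies in Dox+ and 14 in Dox-. Wfikkn2, which encodes a binding protein of myostatin and GDF11, had 38 and 5. Fstl5, a follistatin-like gene, had 82 and 100. Lefty1, an inhibitor of nodal, had 49 and 33.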
